A study of Mus musculus with 6 samples.

Results

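Transcripts of the p53 pathway and of the cyclin-dependent kinase (CDK) inhibitors were followed in aged mouse kidneys that carried a mitochondrial tRNA mutation at either a low or a high load. The genes are Trp53, Mdm2, Cdkn1a, Cdkn2a, Cdkn2b, Ccng1, Bax, Bbc3, Phlda3 and Trp53inp1. They were chosen by name as known members of these pathways, at a time when earlier results of these data were known. All 10 were found among the 32285 genes of the read-count table, and all 10 were among the 15955 genes that passed the filter on low counts. The 6 RNA-seq libraries were each made from the kidney of a female mouse of 100 weeks. All 6 animals were carriers of mutated TrnE, which encodes the mitochondrial tRNA for glutamate. The load, the share of mutated copies among all mitochondrial DNA, was 10%, 5% and 15% for controls 1 to 3. For high-load 1 to 3 it was 75%, 75% and 80%. The controls are therefore low-load carriers, and a mouse without the mutation was not part of the comparison. Levels are given as CPM, TMM-scaled read counts relative to library size, as mean ± SD with n = 3 per group.

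High-load kidneys had more Cdkn1a mRNA (67.6 ± 12.4 against 27.7 ± 3.23 CPM) and more Cdkn2a mRNA (2.32 ± 0.976 against 0.164 ± 0.163 CPM). Trp53 itself and its death and stress targets Bax, Bbc3, Phlda3 and Trp53inp1 were also higher in every high-load library than in every control, by 1.34- to 1.83-fold. Mdm2 and Ccng1, which are p53 targets as well, had overlapping groups and fitted log2 fold changes of -0.05 and -0.16. In edgeR's quasi-likelihood test with Benjamini-Hochberg adjustment over all 15955 genes, 0 of the 10 passed an adjusted p of 0.05, so none is called changed here.

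p53, encoded by Trp53, is a transcription factor that is held at a low level by the ubiquitin ligase MDM2 and accumulates after DNA damage and other stress. It then switches on genes that halt the cell cycle, above all Cdkn1a, genes that open the mitochondrial route to cell death, such as Bax and Bbc3, and Mdm2 itself, which closes a feedback loop. CDK inhibitors block the kinases that drive the cell cycle: Cdkn1a encodes p21, Cdkn2b encodes p15INK4b, and Cdkn2a encodes both p16INK4a and p19ARF, of which the latter binds MDM2 and frees p53. In the kidney, p21 is known to be induced in tubules after acute injury, and p16INK4a and p21 are widely used marks of cellular senescence with age.

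The p53 response element is a run of 20 bases made of a pair of 10-base half-sites, and RefSeq promoter windows (GRCm38.p6, the assembly of mm10) were searched for it on both strands. A window spans 250 bases before a gene's start and 50 after it, and 9 of the 10 genes had at least 1 window. The stretches of the 5 genes with a match of at most 3 mismatches are shown because the element is the sequence p53 is known to bind. A match is a description of the letters, not evidence of binding, and one with 3 mismatches is a loose one. Capitals mark the 20 bases that match, and each stretch reads 5′ to 3′ on the gene's strand.
Cdkn1a: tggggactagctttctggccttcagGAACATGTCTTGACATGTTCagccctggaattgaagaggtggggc
Ccng1: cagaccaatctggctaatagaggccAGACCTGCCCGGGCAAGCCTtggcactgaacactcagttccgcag
Bbc3: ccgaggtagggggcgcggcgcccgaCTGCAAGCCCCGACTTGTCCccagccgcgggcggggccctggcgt
Bax: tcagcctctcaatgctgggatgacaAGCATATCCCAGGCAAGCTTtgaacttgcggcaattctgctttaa
Trp53: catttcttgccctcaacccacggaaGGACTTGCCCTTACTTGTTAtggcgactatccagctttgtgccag

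The Cdkn1a stretch lies at chr17:29090903-29090972 on the plus strand, and its match has 1 mismatch and ends 32 bases before the upstream of the gene's 2 starts. That of Ccng1 lies at chr11:40755437-40755506 on the minus strand, also with 1 mismatch, and ends 176 bases before the start. The other matches had 3 mismatches each: Bbc3 at chr7:16309461-16309530 (plus strand), Bax at chr7:45467065-45467134 (minus strand) and Trp53 at chr11:69580259-69580328 (plus strand). Of all 32851 windows in the RefSeq table, 0.0883% held a match with at most 1 mismatch and 6.29% one with at most 3. The closest matches in the windows of Phlda3, Mdm2 and Cdkn2b had 5 mismatches and those of Cdkn2a had 6. The windows leave out introns, so a site there would not be seen. Cdkn1a and Ccng1, the pair with the closest matches, had unlike values in these kidneys, as given below.

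Trp53 (chr11:69580359-69591873, plus strand) was measured at 53.7, 49.3 and 47.3 CPM in controls 1 to 3 and at 72.6, 62.6 and 67.0 CPM in high-load 1 to 3. The lowest high-load library lay above the highest control. The log2 fold change was 0.43 (SE 0.09) with an edgeR adjusted p of 0.0981. Mdm2 (chr10:117688875-117710758, minus strand), the ligase that degrades p53, stood at 62.7, 68.3 and 62.9 CPM in the controls and at 64.2, 57.0 and 66.1 CPM in the high-load kidneys. The groups overlapped, with a log2 fold change of -0.05 (SE 0.09) and an edgeR adjusted p of 0.763. Its sign was not stable: it was 0.07 with library totals as the only scaling and 0.01 without high-load 2.

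Of the other regulators of p53, 16 had enough reads to test. Hipk2, a kinase that activates p53 in the death response, was measured at 16.7, 20.96 and 20.6 CPM in the controls and at 11.8, 13.6 and 10.97 CPM in the high-load kidneys. Its log2 fold change was -0.68 (SE 0.14) with an edgeR adjusted p of 0.0981, and the groups did not overlap. Pml, the scaffold of the nuclear bodies in which p53 is modified, stood at 45.9 ± 4.19 CPM in controls and 63.0 ± 11.1 CPM at high load, with an edgeR adjusted p of 0.139. Chek1, a checkpoint kinase that phosphorylates p53, was at 1.78 ± 0.153 CPM and 2.86 ± 0.766 CPM, with an edgeR adjusted p of 0.187. Both had groups that did not overlap, as did Trp53bp1 and Kat5, at log2 fold changes of 0.07 and 0.20. The gap of Trp53bp1 was slight, from 33.84 CPM in control 1 to 33.89 CPM in high-load 1, with an edgeR adjusted p of 0.562. Mdm4, the partner of MDM2, was at 111 ± 12.3 and 119 ± 9.55 CPM, and the phosphatase gene Ppm1d at 15.9 ± 1.05 and 15.4 ± 1.94 CPM, with overlapping groups for both. Atm, Atr and Chek2, the other kinases of DNA damage signalling, had log2 fold changes of -0.28, -0.06 and 0.15 and overlapping groups. Cop1, Rchy1 and Usp7, which control the stability of p53 protein, had log2 fold changes of 0.04, -0.25 and -0.05, also with overlapping groups. Daxx was at 0.09 with overlapping groups, and the deacetylase gene Sirt1 was at -0.12 with every high-load library below every control. Over the 18 tested genes of p53 and its regulators, 5 had all high-load libraries above all controls (17.1% of all tested genes did) and 2 had all below (15.8% of all tested genes). Their median log2 fold change was 0.06, against 0.0067 for all tested genes, and its sign turned under some settings (-0.0040 with limma-voom and -0.0021 without high-load 1).

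**Figure D1:**
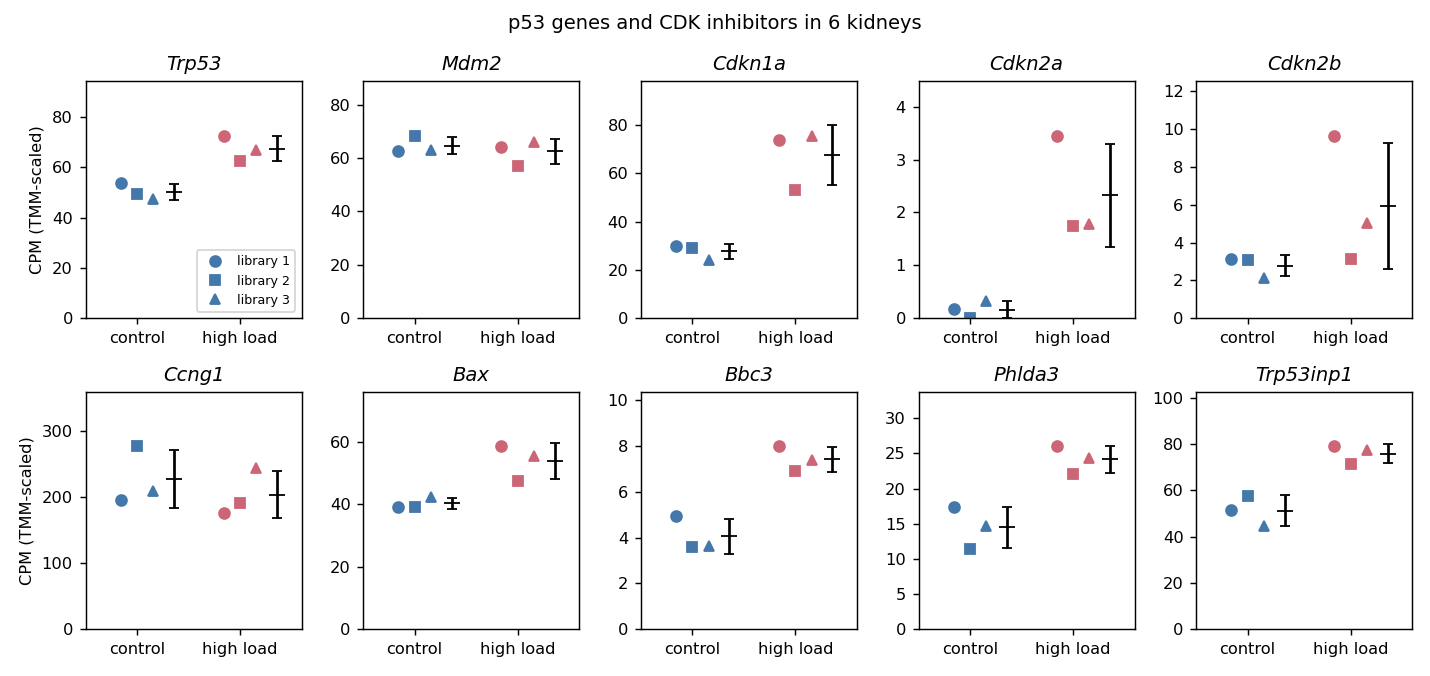
TMM-scaled CPM of the 10 genes in each library, with 3 control kidneys (blue) and 3 high-load kidneys (red), 1 symbol per library, and the mean ± SD (black) beside each group; every vertical axis starts at 0. For 8 genes the groups do not overlap, while for Mdm2 and Ccng1 they do.

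Among the CDK inhibitors, Cdkn1a had the lowest p. Cdkn1a (chr17:29090976-29100727, plus strand) was measured at 30.0, 29.0 and 24.0 CPM in the controls and at 73.9, 53.3 and 75.6 CPM in the high-load kidneys. The lowest high-load library, high-load 2, was still well above the highest control. The fitted fold was 2.44, a log2 fold change of 1.29 (SE 0.16), with an unadjusted p of 0.000114 and an edgeR adjusted p of 0.0772. Leaving out each library in turn kept the log2 fold change between 1.19 and 1.44, and the edgeR adjusted p was 0.0143 without high-load 2 and 0.0254 with no filter on low counts. An exon of Cdkn1a overlaps one of AC167363.2 on the opposite strand, and no source used here gives the strand setting of the counting, so reads of the pair cannot be told apart.

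Cdkn2a (chr4:89274471-89294653, minus strand) was counted 3, 0 and 6 times in the controls and 73, 32 and 32 times in the high-load kidneys. In CPM these are 0.166, 0 and 0.327 against 3.45, 1.74 and 1.78. The gene was therefore near the detection limit in every control: a count of 0 was set against a floor of 3 counts, which is 0.182 CPM in control 2, where the exact interval reached 0.224 CPM. The exact 95% Poisson intervals, which cover counting error only, reached up to 0.711 CPM in the controls and down to 1.19 CPM in the high-load libraries, so they did not overlap. The fitted log2 fold change was 3.74 (SE 0.72) with an edgeR adjusted p of 0.0946, and because it rests on few control reads it moved between 3.20 and 4.65 when single libraries were left out. Without high-load 2 its edgeR adjusted p was 0.0497. Cdkn2a passed the filter on low counts only through its high-load libraries, so its direction was not independent of that filter. RefSeq places the gene's 2 starts 12427 bases apart, one for p19ARF and one for p16INK4a, and the gene-level count pools both transcripts.

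Cdkn2b (chr4:89306299-89311039, minus strand), the neighbour of Cdkn2a, was at 3.11, 3.10 and 2.12 CPM in the controls and at 9.64, 3.15 and 5.01 CPM in the high-load kidneys. By Poisson intervals only high-load 1, at 8.36 to 11.06 CPM, stood clear of the controls. The interval of high-load 3, 4.03 to 6.16 CPM, just met that of control 2, which reached 4.07 CPM. High-load 2 exceeded control 1 by less than counting error, with Poisson intervals of 2.39 to 4.07 and 2.35 to 4.03 CPM. The log2 fold change was 1.10 (SE 0.43) with an edgeR adjusted p of 0.186, and without high-load 1 it was 0.56 with an adjusted p of 0.381.

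The 4 other CDK inhibitors gave smaller differences. Cdkn1b, which encodes p27, was at 61.3 ± 4.41 CPM in controls and 60.7 ± 3.02 CPM at high load, a log2 fold change of -0.01 (SE 0.09). Cdkn1c, which encodes p57 and is a podocyte gene in the kidney, was at 22.8 ± 6.76 and 26.8 ± 11.1 CPM with overlapping groups. Cdkn2c (p18INK4c) was at 17.1 ± 3.57 and 21.7 ± 3.15 CPM, also with overlap. Cdkn2d (p19INK4d) was at 9.34 ± 0.252 and 11.2 ± 1.03 CPM with no overlap and an edgeR adjusted p of 0.28. Over all 7 CDK inhibitors, 4 had groups that did not overlap, all higher at high load (17.1% of all tested genes), and the median log2 fold change was 0.35. Leaving out high-load 3 gave a median of 0.22, and leaving out high-load 1 gave 0.54.

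The targets of p53 that act in cell death came next. Bax (chr7:45461697-45466898, minus strand), which forms pores in the outer mitochondrial membrane, was at 39.1, 39.3 and 42.5 CPM in the controls and at 58.6, 47.5 and 55.6 CPM in the high-load kidneys. The controls lay close together and below all 3 high-load values. The log2 fold change was 0.42 (SE 0.10), with an edgeR adjusted p of 0.108, or 0.0432 without high-load 2. Bax shares exon sequence with Gm45808 on the same strand, which makes its count less certain. Bbc3 (chr7:16308393-16318205, plus strand) encodes PUMA, which neutralises the anti-death proteins of the BCL2 family. It was measured at 4.94, 3.59 and 3.65 CPM in the controls and at 7.99, 6.89 and 7.40 CPM at high load. Its groups were well apart, with a log2 fold change of 0.87 (SE 0.20) and an edgeR adjusted p of 0.102.

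Phlda3 (chr1:135766119-135769136, plus strand), which encodes a repressor of AKT signalling, was at 17.3, 11.4 and 14.7 CPM in the controls and at 26.0, 22.04 and 24.4 CPM at high load. The highest control stayed below the lowest high-load library, and the log2 fold change was 0.74 (SE 0.17) with an edgeR adjusted p of 0.102. Trp53inp1 (chr4:11156431-11174379, plus strand) encodes a stress-induced nuclear protein that promotes p53-dependent cell death and autophagy. Its values were 51.4, 57.8 and 44.7 CPM in the controls and 79.1, 71.3 and 77.4 CPM at high load. The groups were again separate, with a log2 fold change of 0.57 (SE 0.11) and an edgeR adjusted p of 0.0946.

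Ccng1 (chr11:40748552-40755311, minus strand) encodes cyclin G1, a p53 target that recruits a phosphatase to MDM2. It was at 195, 276 and 209 CPM in the controls and at 176, 191 and 243 CPM at high load. The groups overlapped over most of their range. The log2 fold change was -0.16 (SE 0.19) with an edgeR adjusted p of 0.629, and it was 0.0064 without control 2, the library with the highest value.

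Read over the 10 genes, 8 had a positive log2 fold change (50.9% of all tested genes) and 2 a negative one (49.1%). Every high-load value exceeded every control value for 8 (17.1% of all tested genes), and the reverse held for 0 (15.8%). The same 8 had an unadjusted edgeR p under 0.05 (14.0% higher over all genes), and leaving out each library in turn gave 7 or 8. Cdkn2a is in all of these counts and in the next, but it passed the filter on low counts only through its high-load libraries. Its direction and separation were therefore not independent of that filter. At the looser adjusted p of 0.1, edgeR counted Trp53, Cdkn1a, Cdkn2a and Trp53inp1, 4 of 10, beside 2.59% of all genes, and 0 lower, beside 0.608%. This count rests on all 6 libraries: without high-load 2 it was 8 of 10, and without any other single library it was 0 of 10. At 0.05 the shares were 0 of 10 and 0.0188%, from 3 genes in all. That count of 3 was 0 without any 1 of controls 1 to 3 or high-load 1 and 807 without high-load 2, when Cdkn1a, Cdkn2a and Bax passed. DESeq2, a second count test, called 7 of the 10 higher at an adjusted p of 0.05 (4.51% of its 23811 genes), namely the 8 without Cdkn2b, with adjusted p from 2.39e-08 for Cdkn1a and 8.83e-05 for Cdkn2a to 0.0328 for Bax. Limma-voom called 0 of 10 and 0 genes in all. DESeq2 was run without edgeR's filter on low counts, so its 23811 genes include ones that edgeR left out. They also include genes to which DESeq2's own filter gave no adjusted p, so the share of 4.51% is understated. In simulated counts with known changes, 57 of 206 DESeq2 calls at an adjusted p of 0.05 were false. For edgeR it was 5 of 129 and for limma-voom 3 of 120. The simulation took its spread from edgeR and left out the genes that DESeq2 was given above. Its shares are therefore not error rates of the calls in these kidneys. The median log2 fold change of the 10 was 0.65. The genes were chosen with earlier results of these data known, and these counts describe them without testing them as a set.

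Ratios between genes of 1 library do not depend on how libraries are scaled. Cdkn1a had 0.478, 0.424 and 0.381 reads for each Mdm2 read in controls 1 to 3, and the high-load kidneys had 1.15, 0.935 and 1.14, a difference of 1.33 on the log2 scale. For Trp53 over Mdm2 the ratios were 0.856, 0.722 and 0.753 against 1.13, 1.10 and 1.01, a log2 difference of 0.48. Cdkn1a against Trp53 gave a log2 difference of 0.85, so Cdkn1a also stood higher relative to the mRNA of its own regulator. Bbc3, Phlda3 and Trp53inp1 over Mdm2 gave 0.94, 0.81 and 0.62. In each of these 6 ratios the groups did not overlap, but the CPM of each numerator gene did not overlap either. No share over other gene pairs was computed to set beside this count. Ccng1 over Mdm2 overlapped, at a log2 difference of -0.10, and turned to 0.0072 without control 2 and to 0.02 without high-load 1.

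Bax over Bcl2l1, a pore-forming protein against the anti-death protein BCL-XL, had ratios of 0.293, 0.297 and 0.295 in the controls, while the high-load ratios were 0.441, 0.366 and 0.440. The log2 difference was 0.49, while Bcl2l1 itself was at 136 ± 6.68 and 130 ± 3.25 CPM. The exact two-sided permutation test gave p = 0.1 for 7 of the 8 ratios, which is the smallest value that 3 against 3 allows (0.114 after Benjamini-Hochberg adjustment over the 8), and p = 0.6 for Ccng1 over Mdm2. Except for Ccng1, the numerators already had separate groups, and Mdm2 and Bcl2l1 as denominators differed little between groups. The 8 ratios also share genes, so these p-values add no independent support.

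**Figure D2:**
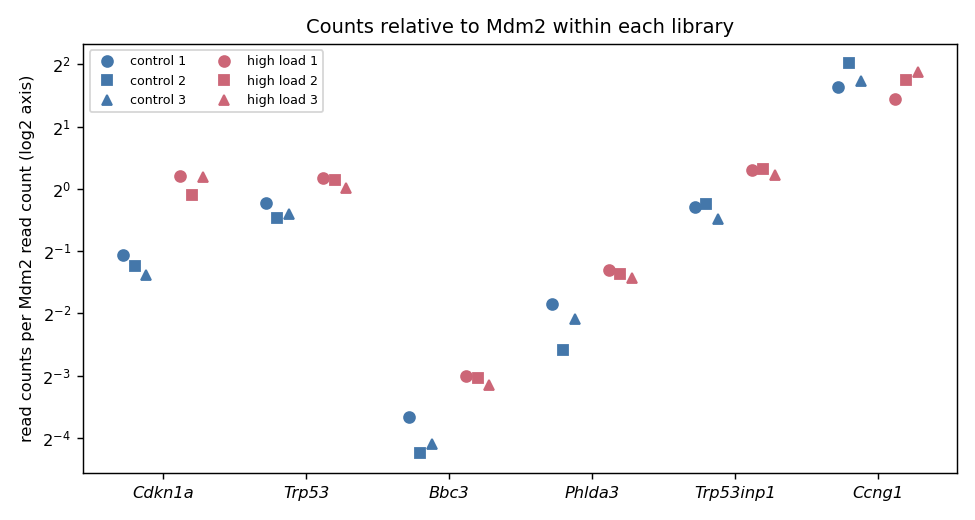
Read counts of 6 genes divided by the Mdm2 count of the same library, on a log2 axis, with 1 symbol per library, controls in blue and high-load kidneys in red. For Cdkn1a the 3 controls lie between 0.381 and 0.478 and the 3 high-load kidneys between 0.935 and 1.15, while for Ccng1 the groups mix.

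Per transcript length the order of the genes also differed between the groups. Levels are TPM here, from counts over the merged exon length, as mean ± SD, and only these values are compared between genes. In the controls Ccng1 was the highest at 168 ± 30.2 TPM, followed by Bax at 66.7 ± 4.29, Mdm2 at 33.1 ± 1.25 and Trp53 at 32.3 ± 1.89 TPM. Phlda3 at 24.2 ± 5.11, Trp53inp1 at 20.6 ± 2.29 and Cdkn1a at 20.3 ± 2.09 TPM came next. Cdkn2b at 5.197 ± 0.985, Bbc3 at 4.98 ± 0.923 and Cdkn2a at 0.370 ± 0.370 TPM were the lowest. Mdm2 and Trp53, the 3 genes Phlda3, Trp53inp1 and Cdkn1a, and the pair Cdkn2b and Bbc3 did not differ within these groups beyond their SD.

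At high load Cdkn1a ranked 3 at 52.2 ± 12.9 TPM, after Ccng1 at 156 ± 16.4 and Bax at 93.8 ± 19.3 TPM. It was followed by Trp53 at 45.7 ± 8.63, Phlda3 at 42.5 ± 8.09, Mdm2 at 33.6 ± 5.15 and Trp53inp1 at 32.1 ± 5.05 TPM. Cdkn1a, Trp53 and Phlda3 were within an SD of each other there, as were Mdm2 and Trp53inp1. Cdkn2b reached 12.1 ± 8.27, Bbc3 9.59 ± 1.80 and Cdkn2a 5.59 ± 3.06 TPM, and these last 3 were again the lowest. With the longest transcript as the length, Cdkn1a ranked 5 in the controls in place of 7.

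Other known p53 targets were read from 3 lists, which include the 10 genes where they apply. Of the cell death list, 12 of 19 tested genes had every high-load library above every control and 3 had every one below, where all tested genes gave 17.1% and 15.8%. The share of lower genes was thus that of the background. The median log2 fold change was 0.59. Besides Bax, Bbc3, Phlda3 and Trp53inp1, these included Apaf1, which assembles the caspase-activating apoptosome, at 9.06 ± 0.697 and 13.7 ± 2.14 CPM. Bcl2l14 was at 2.41 ± 1.04 and 6.33 ± 1.76 CPM. The death receptor gene Fas was on the other side, at 11.9 ± 0.527 CPM in controls and 10.2 ± 0.764 CPM at high load, as were Perp and Ei24 at log2 fold changes of -0.17 and -0.17. Bid, which links death receptors to mitochondria, had overlapping groups at 61.2 ± 18.5 and 44.2 ± 11.5 CPM, and so did Pidd1.

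The targets that act in the cell cycle and DNA repair included 9 of 24 that were higher and 2 of 24 that were lower in all high-load libraries (17.1% and 15.8% of all tested genes), with a median log2 fold change of 0.10 (0.05 without high-load 1). Plk2, a polo-like kinase, was at 14.0, 14.9 and 19.0 CPM in the controls and 35.5, 25.4 and 27.0 CPM at high load, with an edgeR adjusted p of 0.0955. Btg2, an antiproliferative gene, was at 41.7 ± 3.76 and 70.2 ± 18.9 CPM, and Gtse1, which binds and restrains p53 in dividing cells, at 1.85 ± 0.418 and 3.995 ± 0.922 CPM. Rprm, an inhibitor of entry into mitosis, was at 1.39, 1.09 and 0.981 CPM in the controls and at 7.42, 2.33 and 2.89 CPM at high load, with high-load 1 far above the other libraries. Xpc, which recognises DNA damage for nucleotide excision repair, lay lower at 49.7 ± 4.53 and 40.3 ± 1.73 CPM, with an edgeR adjusted p of 0.139. Rrm2b, a p53-inducible ribonucleotide reductase subunit needed for mitochondrial DNA synthesis, was at 32.9 ± 2.41 and 29.2 ± 1.36 CPM, with every high-load library below every control and an edgeR adjusted p of 0.284. Sesn2, Plk3, Ercc5 and Tob1 had negative log2 fold changes of -0.24, -0.29, -0.12 and -0.30 and overlapping groups.

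Of the metabolic targets, 3 of 16 were higher and 5 of 16 lower in all high-load libraries, the first a share near the 17.1% of all tested genes and the second above their 15.8%. The median log2 fold change was -0.14 (-0.21 without control 1). With library totals as the only scaling it was -0.016, where the median of all genes was 0.13. Gdf15, a secreted stress hormone that other stress pathways induce as well, was at 9.98, 7.90 and 8.93 CPM in the controls and at 103, 28.5 and 80.1 CPM at high load. Its edgeR adjusted p was 0.0936, and the high-load libraries were far above the controls but also far apart from each other. Pltp, a lipid transfer protein, was at 35.0 ± 3.52 and 61.0 ± 9.13 CPM, and Tigar, which slows glycolysis, at 8.12 ± 0.211 and 11.1 ± 1.72 CPM. Lpin1, a phosphatidate phosphatase, was lower at 96.0 ± 16.3 and 45.6 ± 16.4 CPM, with an edgeR adjusted p of 0.109. Abat, Aldh4a1, Gpx1 and Dcxr also had every high-load library below every control, at log2 fold changes of -1.12, -0.65, -0.71 and -0.57. Cpt1c, Ak1 and Slc2a9 had overlapping groups.

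**Figure D3:**
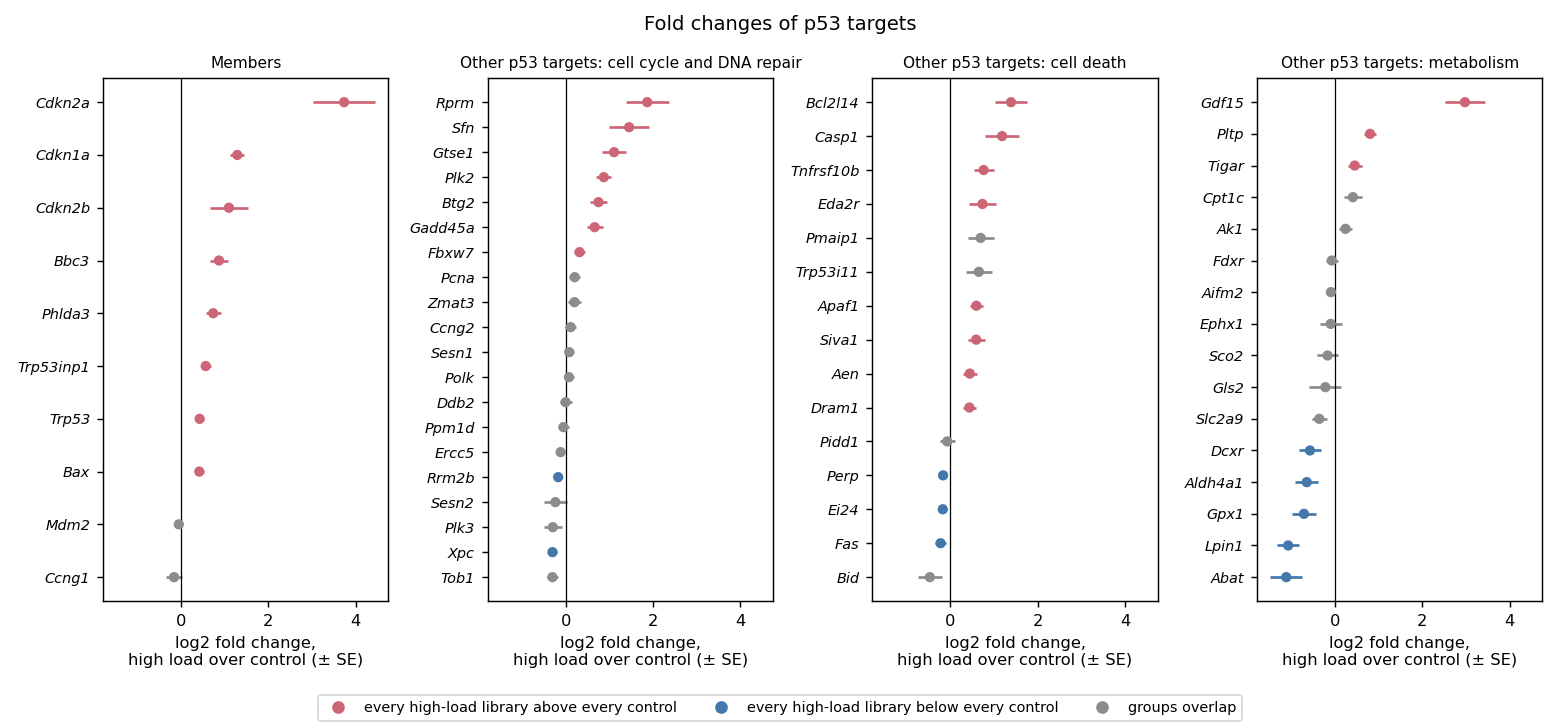
Log2 fold change of high load over control with its SE for the 10 genes and for the other tested p53 targets of each list, in red where every high-load library lies above every control, in blue where every one lies below, and in grey where the groups overlap. Cdkn2a at 3.74 and Gdf15 at 2.98 lie farthest to the right, and the metabolic list holds both Gdf15 and the 2 genes farthest to the left, Abat at -1.12 and Lpin1 at -1.07.

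Genes next to p53 and the inhibitors in the same processes were read in the same way. In the BCL2 family, 8 of 17 tested genes were higher and 1 was lower in all high-load libraries (17.1% and 15.8% of all tested genes), with a median log2 fold change of 0.35 (0.21 without high-load 1). Bak1, the pore-forming partner of Bax, was at 17.7, 16.2 and 14.2 CPM in the controls and 27.1, 22.7 and 25.6 CPM at high load, with an edgeR adjusted p of 0.0946. The 3 near-identical genes Bcl2a1a, Bcl2a1b and Bcl2a1d had log2 fold changes of 1.38, 1.46 and 1.55, but reads could have been split between them. Bcl2l11, which encodes the death activator BIM, was at 19.95 ± 1.76 and 17.3 ± 0.359 CPM, with every high-load library lower. Bcl2l2 and Bik had overlapping groups at -0.10 and -0.06.

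Of the CDKs, cyclins and RB family, 13 of 24 tested genes were higher and 2 lower in all high-load libraries (17.1% and 15.8% of all tested genes), with a median log2 fold change of 0.55. The kinases that CDK inhibitors block were among the higher ones: Cdk4 was at 72.2 ± 7.67 and 105 ± 12.2 CPM, Cdk6 at 31.8 ± 1.19 and 47.8 ± 6.85 CPM, and Cdk1 at 2.31 ± 1.03 and 6.23 ± 1.54 CPM. Ccna2 and Ccne1, cyclins of S phase and its entry, were at log2 fold changes of 0.91 and 1.68, and the phosphatase gene Cdc25b at 0.93. Rbl2, the RB-family protein p130 that holds cells in quiescence, was at 59.9, 62.7 and 56.8 CPM in the controls and 42.4, 46.6 and 41.7 CPM at high load, with an edgeR adjusted p of 0.0946. Rb1 had overlapping groups at 41.0 ± 1.41 and 37.3 ± 6.42 CPM, and Ccnd3 was lower in all high-load libraries at -0.31. Whole-kidney libraries do not tell whether the cells with Cdk4 or Cdk1 mRNA were those with Cdkn1a mRNA.

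The genes known to control the INK4a-ARF locus, where Cdkn2a and Cdkn2b lie, gave shares below those of all tested genes (17.1% higher and 15.8% lower), with 2 of 18 higher and 1 of 18 lower in all high-load libraries. Their median log2 fold change was 0.12 (0.05 without control 2 and 0.08 without high-load 1). Ezh2, the Polycomb methyltransferase that silences the locus, was at 7.23 ± 2.35 and 13.3 ± 2.69 CPM with an edgeR adjusted p of 0.148, and Bmi1, another Polycomb repressor of it, at 57.6 ± 0.832 and 67.2 ± 5.97 CPM with an adjusted p of 0.191. Cdkn2aip was at 15.9 ± 0.481 and 13.9 ± 1.08 CPM, and Eed, Ets2, Tbx2, Id1, Cbx7 and Suz12 had overlapping groups.

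Of the senescence and secretory genes, 7 of 20 tested genes were higher and 2 lower in all high-load libraries (17.1% and 15.8% of all tested genes), and their median log2 fold change of 0.77 was 0.32 without high-load 1. Gpnmb, a lysosomal surface protein, was at 6.43, 2.55 and 1.47 CPM in the controls and 67.3, 20.2 and 30.8 CPM at high load. Timp1, an inhibitor of matrix proteases, was at 4.82 ± 2.10 and 20.6 ± 7.42 CPM, Mmp3, a matrix protease, at 3.69 ± 1.94 and 16.1 ± 3.32 CPM, and the chemokine gene Ccl2 at 4.27 ± 1.19 and 11.2 ± 3.48 CPM. Cxcl1 had overlapping groups. Lmnb1, a nuclear lamin whose loss is a mark of senescent cells, was not lower: it stood at 8.04, 6.14 and 6.65 CPM in the controls and at 13.5, 9.50 and 13.4 CPM at high load. Igfbp5 was lower in all high-load libraries at a log2 fold change of -1.07.

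Over the 155 tested genes of all 9 lists, edgeR called 0 at an adjusted p of 0.05. It gave 58 higher and 8 lower at an unadjusted p under 0.05 (14.0% and 10.2% of all genes). DESeq2 called 37 higher and 6 lower (4.51% and 2.62% of its 23811 genes), while limma-voom called 0. The 23811 genes did not pass through the low-count filter of edgeR's 15955, so the DESeq2 shares are not over a like set. They include genes to which DESeq2's own filter gave no adjusted p and which it could not call. The shares of 4.51% and 2.62% are therefore understated. The count of 58 was 38 without control 3 and 38 without high-load 1, and that of 8 was 4 without control 2, 5 without high-load 3 and 13 without high-load 2.

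Whole kidney holds many cell types, and in such bulk samples fewer cells of a type and less RNA per cell cannot be told apart. The labelled tissue was borne out by the proximal tubule markers, whose 8 genes summed to 9260 to 10783 CPM in controls and 2624 to 7918 CPM at high load. Of these 8, 5 were lower in all high-load libraries. Among all tested genes, 17.1% were higher and 15.8% lower in all, the shares to set beside each count here. The 8 markers of injured tubule summed to 2316 to 3375 CPM in controls and 4340 to 9054 CPM at high load, with 7 of 8 higher in all high-load libraries. The 8 macrophage and dendritic cell markers summed to 768 to 1022 CPM and 1288 to 2301 CPM, with 7 of 8 higher in all. The 10 markers of dividing cells summed to 111 to 146 CPM and 160 to 217 CPM, with 5 of 10 higher in all. The 6 fibroblast and pericyte markers summed to 232 to 428 CPM and 379 to 627 CPM, ranges that overlap, with 3 of 6 higher in all. B and plasma cell markers summed to 944 to 2170 CPM and 2442 to 5513 CPM, and T and NK cell markers to 11.5 to 32.0 CPM and 24.9 to 62.3 CPM, where Gzma was at 0 in control 1. Markers lower in all high-load libraries were 2 of 4 for the thick ascending limb, 2 of 4 for the distal convoluted tubule and 1 of 5 for endothelium. For podocytes it was 0 of 5 and for principal cells 0 of 4. Intercalated cells had 2 of 4 higher and 1 of 4 lower in all. The part of these cell types in the values of the 10 genes was not tested.

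High-load 1 stood apart from the other libraries in urothelial and other cell type markers and in several genes of these lists, Rprm among them. It had the lowest sums of the 6 libraries for proximal tubule (2624 CPM), podocyte (253 CPM) and distal convoluted tubule markers (1085 CPM). Its sum for macrophage and dendritic cell markers was the highest (2301 CPM). Its 5 urothelial markers summed to 208 CPM, against 40.1, 20.8 and 12.4 CPM in the controls and 2.06 and 1.61 CPM in high-load 2 and 3, where Krt5 was at 0 in both and Upk3a at 0 in high-load 3. Sfn, a p53 target also known as 14-3-3 sigma and an epithelial gene, was at 41.3 CPM there, against 9.04, 8.32 and 8.17 CPM in the controls and 11.2 and 17.4 CPM in the other high-load libraries. Sfn was chosen after its values were seen. Trp63, a p53 relative of basal epithelia, was at 7.33 CPM there and at 0.651 and 0.668 CPM in high-load 2 and 3, below the 1.94, 2.37 and 1.42 CPM of the controls. Cdkn2b was highest in the same library. The part of urothelial cells in these values was not tested.

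**Figure D4:**
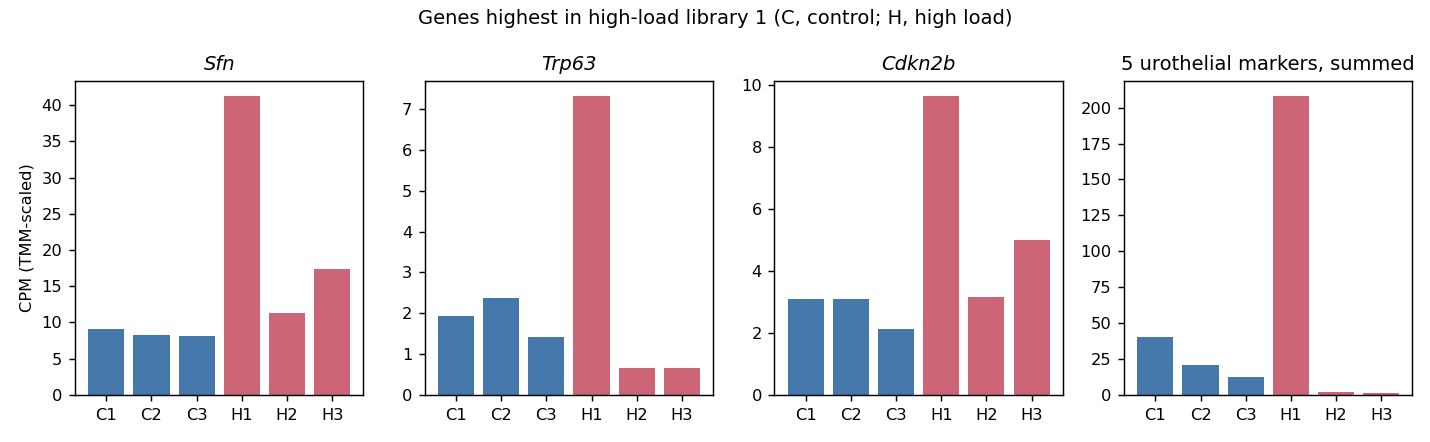
TMM-scaled CPM of Sfn, Trp63, Cdkn2b and the sum of 5 urothelial marker genes in each library (controls C1 to C3 in blue, high-load H1 to H3 in red), on axes that start at 0. H1 is the highest bar in each panel, at 208 CPM for the markers, 41.3 for Sfn, 7.33 for Trp63 and 9.64 for Cdkn2b.

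The genes whose pattern over the 6 libraries was nearest to that of Cdkn1a were Hspb8, Mefv and Ms4a4c, among 14890 genes. They were compared by the mean absolute distance of centred log2 CPM, with 0.5 CPM added before the log. Hspb8, a small heat shock protein that works in chaperone-assisted autophagy, was at 9.98, 9.72 and 8.23 CPM in the controls and 26.5, 18.8 and 29.9 CPM at high load, at a distance of 0.0507. Mefv, which encodes the inflammasome protein pyrin, had a distance of 0.0539 and a log2 fold change of 1.95. It was low, at 0.555, 0.486 and 0.327 CPM in the controls and 2.17, 1.14 and 2.00 CPM at high load. At such levels the added 0.5 CPM shrinks log2 differences, so its distance depends on that setting. Ms4a4c had a distance of 0.0847 and a log2 fold change of 1.49.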

How the data were processed

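The authors deposited 1 table of raw counts per Ensembl gene for 6 whole-kidney RNA-seq libraries. Per the labels' protocols, RNA was extracted with TRIzol and libraries were read as 150 bp pairs on DNBSEQ. Per the submitters' processing notes, the tools were featureCounts 2.0.1, HISAT2 2.2.1, fastp 0.23.2 and SAMtools 1.11, with edgeR and the build mm10. No source used here gives the annotation, the strand setting or how reads with several matches were counted. Total counts ranged from 17449270 to 18865997. Groups came from the sample titles. The labels name a mouse for each library, and p-values measure the spread between these samples.

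Symbols and positions came from GENCODE M21 (32235 of 32285 IDs matched). Tests used edgeR 4.0.16 (R 4.3.3): filterByExpr (minimum count 10), TMM factors (0.944 to 1.139), a robust two-sided quasi-likelihood F test on group, and Benjamini-Hochberg adjustment over 15955 genes. The biological coefficient of variation was 23.0%. SEs were derived from the F statistic. DESeq2 1.42.0, limma-voom (3.58.1), other scaling and filters, a replicate block, load as a number and leaving out each library were alternatives. The count tests were tested on simulated data.

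The 10 genes and all lists were chosen with earlier results of these data known. Named were the 10 genes, every measured CDK inhibitor and p53 regulator, up to 6 genes per direction of each other list by unadjusted p (some overlapping ones are left out here), the 3 genes nearest to Cdkn1a, and marker genes only where a result turns on them. Rfwd2, Trp53aip1 and 9630033F20Rik had no match, and Trp73, Hrk and Il6 had too few counts to test. Non-overlap under other scalings, ratios without each library and the count of the 10 genes at an adjusted p of 0.1 under each alternative were added after seeing the data.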

Additional observations from a re-analysis of the deposited data

How the results depend on the processing

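Over all genes, edgeR called 3 at an adjusted p of 0.05; the count was 50 (46 higher, 4 lower) with no filter on low counts, 1698 (1074 and 624) with DESeq2, 0 with limma-voom, 10 with mutation load as a number, 511 at an adjusted p of 0.1, and 0 to 807 when each library was left out (0 without control 1, 2 or 3 or high-load 1, and 807 without high-load 2). With the replicate number as a block it was 1. Same-numbered libraries had correlations of 0.12, -0.19 and 0.05, within the -0.28 to 0.32 of libraries with unlike numbers. With 3 libraries per group these values cannot show whether the numbers pair the samples. With the block, the edgeR adjusted p was 0.0922 for Trp53, 0.0683 for Cdkn1a, 0.0881 for Cdkn2a and 0.0985 for Trp53inp1. Cdkn1a passed 0.05 with no filter (0.0254), and Cdkn1a, Cdkn2a and Bax passed it without high-load 2 (0.0143, 0.0497 and 0.0432). At an adjusted p of 0.1 edgeR counted 4 of the 10 genes, 7 with mutation load as a number, and 0 to 8 with each library left out. The 8 genes with separate groups kept a positive log2 fold change in every setting tried. Signs turned for the log2 fold changes of Mdm2 (0.072 with library totals; -0.094 to 0.013 with each library left out, highest without high-load 2) and Ccng1 (-0.31 to 0.0064, highest without control 2), for Ccng1 over Mdm2 (-0.20 to 0.017, positive without control 2, at 0.0072, and high-load 1) and for the median of p53 and its regulators (-0.0040 with limma-voom, -0.0053 with the block, -0.0021 to 0.078 with each library left out, lowest without high-load 1). Library totals alone moved the median of all genes to 0.13 from 0.0067. The cause of these changes was not tested. Depth limits Cdkn2a, with 0 to 6 control reads. With the longest transcript as the length, the control levels of Mdm2, Cdkn1a, Ccng1 and Bax were 43.6, 28.2, 137 and 77.8 TPM.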

Other observations

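Genes with a close p53 response element in their RefSeq promoter window were read across the whole table, a choice made after seeing the data. A match with at most 1 mismatch was found for 29 gene symbols, of which 21 matched the count table and 12 were tested. Of these 12, which include Cdkn1a and Ccng1, 9 had a positive and 3 a negative log2 fold change (50.9% and 49.1% of all tested genes). The median was 0.44. All high-load libraries were above all controls for 4 of the 12 (17.1% of all tested genes): Cdkn1a, Gtse1, Clec4b1 and Calhm2. They were below all controls for 1 (15.8% of all tested genes). Clec4b1, a lectin of myeloid cells, was at 1.498, 1.15 and 1.91 CPM in the controls and at 3.36, 2.33 and 3.45 CPM at high load, with an edgeR adjusted p of 0.129. Cldn16, a tight junction gene of the thick ascending limb, had overlapping groups and a log2 fold change of 0.43. Mthfd1, an enzyme of folate metabolism, was on the other side, with every high-load library below every control and a log2 fold change of -0.44. Rps27l, a known p53 target, was at 0.06 with overlapping groups, like Ccng1. With at most 2 mismatches, 104 genes were tested, 55 with a positive and 49 with a negative log2 fold change (50.9% and 49.1% of all tested genes). Their median was 0.03 (0.0067 for all tested genes), and 22 had every high-load library above every control and 13 every one below (17.1% and 15.8% of all tested genes).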
